A study of Homo sapiens with 56 samples.

Results

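The integrated stress response and the unfolded protein response were followed through 40 listed genes: sensor kinases and their transcription factors, feedback regulators, amino acid and one-carbon enzymes, aminoacyl-tRNA synthetases, chaperones of the endoplasmic reticulum (ER) and genes of ER-associated degradation. Each gene was represented by 1 probe set annotated to its symbol alone, the brightest on average over all 56 arrays, which gave values for 38 of the 40 genes, of 19775 genes in all. MARS1 had 3 probe sets and SYVN1 had 1, each also annotated to a microRNA gene, so neither is given a value. NUPR1, a stress-induced chromatin protein, had a mean signal of 25.2 to 54.2 in the 14 groups, below the level at which genes were tested. Between 34 and 37 members were therefore tested in each comparison.

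Messenger RNA had been measured on Affymetrix arrays in HuT102, MyLa, MJ and HuT78, 4 human lines cultured from cutaneous T-cell lymphomas. Cells had been grown in 6-well plates with cobomarsen (MRG-106), an oligonucleotide that inhibits miR-155 and was added straight to the medium, or left untreated. HuT102, MyLa and MJ had been harvested at day 8 and at day 4, and HuT78 at day 8. The 14 groups were cobomarsen and untreated cells of HuT102 day 8, HuT102 day 4, MyLa day 8, MyLa day 4, MJ day 8, MJ day 4 and HuT78 day 8, with 4 arrays each. The series names the earlier day as the time for direct targets and the later day as the time for downstream targets. HuT102 and MJ carry the retrovirus HTLV-1. At 96 hours every well had been split by the dilution that returned untreated cells to their seeding density, and the cell densities reached with cobomarsen are not given in the labels. No control oligonucleotide is among the arrays used, so blocking of miR-155 and a general effect of oligonucleotides cannot be told apart. Whether the 4 arrays of a group stem from separate cultures is not stated in the labels. The spread behind each p-value may therefore be technical. In bulk RNA, fewer cells with a transcript and less transcript per cell cannot be told apart.

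The integrated stress response starts when one of several kinases phosphorylates the translation factor eIF2, among them PERK (gene EIF2AK3), which senses unfolded protein in the ER, and GCN2 (EIF2AK4), which senses uncharged tRNA. General translation then slows while the transcription factor ATF4 is made in larger amounts and switches on genes for amino acid synthesis, tRNA charging and, in time, its own feedback. The unfolded protein response adds the ER sensors IRE1 (ERN1), which splices the mRNA of XBP1, and ATF6, a membrane-bound factor released by cleavage. Both raise chaperones and the machinery that sends misfolded proteins to the proteasome. Plasma cells and activated lymphocytes are known to lean on these pathways. Arrays of this kind measure mRNA, so neither phosphorylated eIF2, spliced XBP1 mRNA nor cleaved ATF6 was measured.

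The mature microRNA that cobomarsen is designed to block is given because its inhibitor is what separates the groups. Its seed, bases 2 to 8, is in capitals, and the sequence and its position on human chromosome 21 are RefSeq's, build GRCh38.p14.
miR-155-5p, chr21:25573983-25574006, plus strand: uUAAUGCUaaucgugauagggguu

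RefSeq promoters, from 250 bases before to 50 bases after each start site, were available for 36 of the 40 genes and were searched on both strands for 5 known response elements. The first, ERSE, is CCAAT, then 9 bases, then CCACG, which ATF6 binds together with NF-Y. The second, ERSE-II, is ATTGG, then 1 base, then CCACG. The others were the core of the CARE bound by ATF4 with C/EBP partners (TGATGNAA), the cyclic AMP response element CRE (TGACGTCA) and the core of the UPRE bound by XBP1 (TGACGTG). ERSE was found in 5 members, against 0.0916% of all 27305 genes searched, each counted once over its promoters. ERSE-II was found in 2 members, against 0.0696% of all genes. The CARE core was found in 7 members, against 4.46% of all genes. CRE and the UPRE core were each found in 1 member, against 2.25% and 2.40% of all genes. HERPUD1 was the one member with more than one kind of element, and its CARE core and ERSE-II did not overlap. These are matches of letters, not measured binding. Both the elements and the members were chosen from these known pathways, so the counts are no test of enrichment.

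The matches in members that the results turn on are shown with the element in capitals and 5 bases on either side, printed on the strand that reads the element, with the position of the element itself.
XBP1, ERSE, chr22:28800603-28800621, minus strand: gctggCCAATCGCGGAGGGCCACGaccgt
HSPA5, ERSE, chr9:125241391-125241409, minus strand: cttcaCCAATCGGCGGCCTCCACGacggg
HSP90B1, ERSE, chr12:103930216-103930234, plus strand: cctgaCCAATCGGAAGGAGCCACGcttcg
HSP90B1, ERSE, chr12:103930321-103930339, minus strand: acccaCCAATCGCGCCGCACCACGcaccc
PDIA6, ERSE, chr2:10812853-10812871, minus strand: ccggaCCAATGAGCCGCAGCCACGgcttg
CALR, ERSE, chr19:12938384-12938402, minus strand: accgaCCAATGATGGTCGACCACGcgtgg
SDF2L1, ERSE-II, chr22:21642114-21642124, minus strand: ttttgATTGGTCCACGcttcc
HERPUD1, ERSE-II, chr16:56932025-56932035, plus strand: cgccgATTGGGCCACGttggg
HERPUD1, CARE core, chr16:56931966-56931973, minus strand: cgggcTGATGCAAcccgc
ATF3, CARE core, chr1:212565216-212565223, plus strand: caggaTGATGGAAggctg
CHAC1, CARE core, chr15:40953262-40953269, minus strand: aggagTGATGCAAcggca
GARS1, CARE core, chr7:30594845-30594852, minus strand: gagcaTGATGAAAtcgcc
AARS1, CARE core, chr16:70289686-70289693, plus strand: ttggcTGATGCAActgcg

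The 250 bases before the start are shown whole for ASNS, which had 6 calls over the 7 comparisons of treatment, and PPP1R15A, which had 5. The capitals mark the CARE core in ASNS and the CRE in PPP1R15A.
ASNS promoter, chr7:97872409-97872658, minus strand: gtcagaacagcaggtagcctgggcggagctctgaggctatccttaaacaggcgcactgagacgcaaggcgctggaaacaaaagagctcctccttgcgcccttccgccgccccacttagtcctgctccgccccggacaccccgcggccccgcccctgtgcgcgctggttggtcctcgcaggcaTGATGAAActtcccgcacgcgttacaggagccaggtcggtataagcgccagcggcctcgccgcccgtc
PPP1R15A promoter, chr19:48872171-48872420, plus strand: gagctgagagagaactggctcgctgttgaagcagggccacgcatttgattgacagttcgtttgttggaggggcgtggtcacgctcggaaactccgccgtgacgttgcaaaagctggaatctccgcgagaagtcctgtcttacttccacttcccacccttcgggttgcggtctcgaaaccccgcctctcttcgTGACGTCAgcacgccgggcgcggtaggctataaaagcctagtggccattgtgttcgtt

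Array quality was alike over the series and differed a little between some groups. The mean signal after trimming 2% of the values at each end was 500 in every array, so all had been scaled to one level. The upper quartile was higher with cobomarsen without overlap in HuT102 at day 8 (439 to 466, against 419 to 429 in untreated cells), in MJ at day 8 (446 to 454, against 425 to 437) and in MJ at day 4 (430.39 to 444, against 399.6 to 430.02). The ratio of 3′ to 5′ GAPDH probes was higher with cobomarsen in MJ at day 8 (0.921 to 0.951, against 0.898 to 0.915) and overlapped in the other comparisons. The mean correlation of an array with its own group ran from 0.959 to 0.978 over all 56 arrays. It was lower with cobomarsen without overlap in HuT102 at day 8, MyLa at day 4 and HuT78. In MyLa at day 8 and MJ at day 4 it was higher without overlap. The part of these differences in the results was not tested. In HuT78 cobomarsen array 1 stood apart, with an upper quartile of 431, against 380 to 385 in the other cobomarsen arrays and 422 to 443 in untreated arrays. Marker genes of other cell types were checked by line. Of 12 T cell markers, 10 lay above a signal of 73.98 in every group of HuT102, MJ and HuT78, and 7 did in MyLa. CD2 was near background in HuT78 (44.4 to 44.5), where the epithelial marker EPCAM reached 8889 to 8926. Of 5 epithelial markers, 3 lay above 73.98 in both HuT78 groups, 1 in every MyLa group and 0 in HuT102 and MJ. Of 4 B cell markers, 2 did so in HuT102, 3 in HuT78 and 1 each in MJ and MyLa. PAX5 reached 1148 to 1687 in HuT102, where CD79B was at 8.91 to 24.8. Of 4 myeloid markers, 1 did so in HuT102 and HuT78 and 2 in MJ and MyLa, while LYZ stayed at or below 37.3 and CD14 at or below 25.5 in all 4 lines. Of 4 fibroblast markers, 1 did so in HuT102 and MJ and 0 in HuT78 and MyLa. Some marker means also differed with treatment at day 8. PTPRC averaged 904 with cobomarsen and 446 in untreated cells of MJ, and 1127.5 and 2208 in MyLa. CDH1 averaged 2204 with cobomarsen and 779 in untreated cells of MyLa. The part of the markers in the results was not tested.

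Values are the authors' MAS5 signals on a linear scale. Changes are differences of mean log2(signal + 16), cobomarsen minus untreated, and are given ± the standard error of a limma model over all 56 arrays. A gene was tested where its average log2 value in the groups compared was at least the median of the whole table (signal 73.98) and was called at an adjusted p under 0.05, adjusted over all genes tested. Signals compare the same probe set between groups, never one gene with another.

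In MJ cells more members were called lower than higher with cobomarsen at both days. In MJ at day 8, 16 of 37 members were called lower and 6 higher, against 18.6% and 15.2% of all 11939 genes tested. At day 4 in MJ, 20 members were called lower and 1 higher, against 14.3% and 13.2% of all 11985 genes. The median change of the MJ members was -0.24 at day 8 and -0.32 at day 4, where the medians of all genes were -0.02 and 0.00. Cobomarsen and untreated arrays did not overlap for 26 of 37 members at day 8, against 42.0% of all genes tested, and for 25 at day 4, against 31.4%.

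HuT102 had members called in each direction. At day 8, 10 of 37 members were called higher and 13 lower, against 18.9% and 21.2% of all genes, and the groups did not overlap for 21, against 39.5% of all genes. At day 4, 7 were called higher and 4 lower, against 10.1% and 13.0%, and the groups did not overlap for 14, against 27.0%. The median changes of the members, -0.04 at day 8 and -0.07 at day 4, lay close to those of all genes, 0.00 and -0.03.

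In MyLa at day 8, 10 of 34 members were called higher and 6 lower, against 23.5% and 18.4% of all genes, and 17 did not overlap, against 40.7% of all genes. At day 4, 5 were called higher and 9 lower, against 13.4% and 12.9%, and 11 did not overlap, against 25.4%. The members' medians were 0.05 and 0.00, and those of all genes 0.02 and 0.00.

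In HuT78, 4 of 36 members were called higher and 1 lower, against 10.7% and 11.4% of all genes, and the groups did not overlap for 1 member, against 9.12% of all genes. None of the 5 calls was kept when the model held the HuT78 arrays alone: 0 members were then called in limma, with 4 at an unadjusted p under 0.05, and 2 of the 10950 genes tested were called. Without cobomarsen array 1, 14 members were called, and the share of all genes called in that fit is not given here. HuT78 values below are therefore given as signals or effects beside the other lines.

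Over the 7 comparisons 112 of 252 tested pairs of member and comparison were called (44.4%), and 107 of 216 without HuT78. The same share over all genes was 30.7%, and 32% without HuT78. Most members lay well above the lowest level tested, and no share of genes matched in level is given here or for the other counts. A total of 33 members were called at least once and 20 of them in both directions. Without HuT78 16 were called in both, since ALDH18A1, GARS1, PDIA6 and SARS1 were called higher there alone. How many of all genes were called at least once or in both directions was not counted. Neither count is therefore read as particular to the members. CALR, CHAC1, SHMT2 and STC2 were not called in the model over all arrays. Of the 112 calls, 74 were kept with each array left out in turn and under those of the 9 planned settings in which the member was tested. The stricter filter on low values did not test every member.

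**Figure D1:**
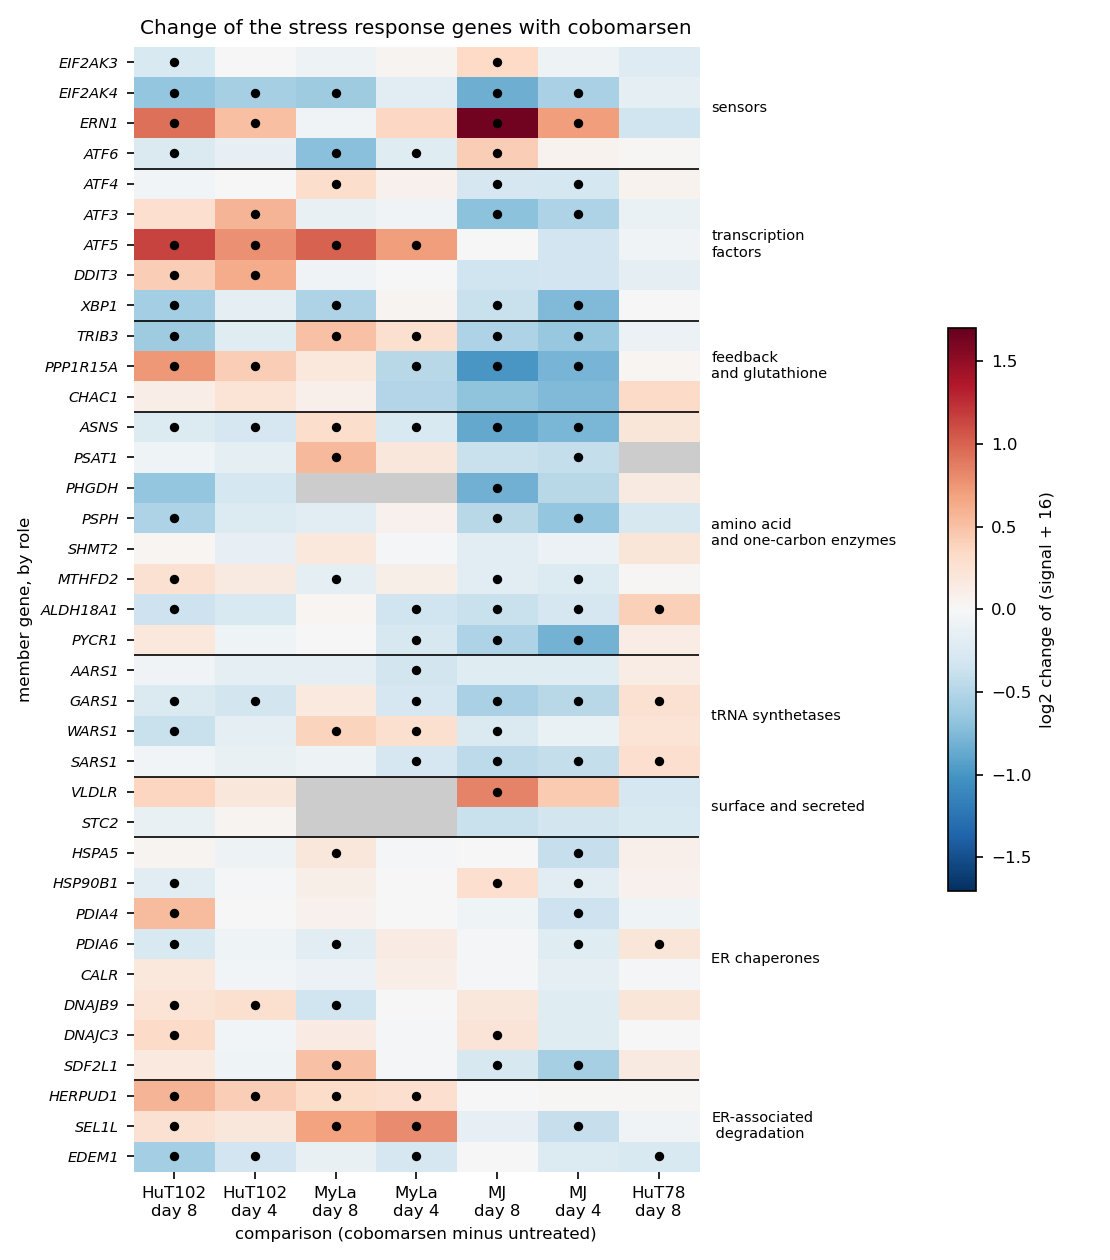
Log2 change of (signal + 16), cobomarsen minus untreated, for the 37 members tested in at least 1 comparison (rows, by role) in the 7 comparisons of line and day (columns); red is higher and blue lower with cobomarsen, black dots mark adjusted p under 0.05 and grey cells were not tested. The MJ columns are blue for most transcription factors, feedback genes, enzymes and tRNA synthetases, while ERN1 is red in HuT102 and MJ.

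Of the transcription factors, ATF4, the central activator of the integrated stress response, was abundant in all lines and changed little. Its day 8 signals in MJ were 13860.0, 12554, 13367 and 14496 with cobomarsen, against 16165, 16428, 16266 and 17083 in untreated cells. The MJ signals at day 4 were 16433, 15414, 16056 and 14805 with cobomarsen, against 17574, 21531, 19978 and 18067 in untreated cells. At either day every cobomarsen array lay below every untreated one. The changes were -0.28 ± 0.10, adjusted p = 0.0259 at day 8 and -0.30 ± 0.10, adjusted p = 0.0236 at day 4. Both calls rest on single arrays: the day 8 call was lost without cobomarsen array 2 or 3 or untreated array 4 (adjusted p = 0.0529 to 0.0873). The day 4 call was lost without cobomarsen array 2 or 4 or untreated array 2 or 3 (adjusted p = 0.0502 to 0.105).

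MyLa went the other way for ATF4 at day 8. Its signals were 23095, 25973, 22486 and 23956 with cobomarsen, against 16819, 19778, 22197 and 19008 in untreated cells, with no overlap and a change of 0.30 ± 0.10, adjusted p = 0.0140. That call was lost without cobomarsen array 2 or untreated array 1 (adjusted p = 0.0558 to 0.0771). The effect in MyLa at day 8 exceeded that in MJ by 0.58 ± 0.14, adjusted p = 0.00108. In HuT102 the ATF4 changes were -0.04 at day 8 and 0.01 at day 4, and neither was called.

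ATF3, a stress-induced repressor and partner of ATF4, moved in opposite directions in HuT102 and MJ. In HuT102 at day 4 its signals were 6990.4, 7967, 7199 and 7671 with cobomarsen, against 4817, 4604, 5344 and 5292 in untreated cells, with the cobomarsen arrays all higher (0.57 ± 0.18, adjusted p = 0.0140). In MJ at day 8 they were 1546, 1378, 1695 and 1608 with cobomarsen, against 2584, 2390.2, 2376 and 2764 in untreated cells, with the cobomarsen arrays all lower (-0.70 ± 0.18, adjusted p = 0.00149). ATF3 was also lower in MJ at day 4 (-0.53 ± 0.18, adjusted p = 0.02005), a call that was lost without untreated array 3 (adjusted p = 0.0517). The HuT102 change at day 8 was 0.29 ± 0.18, adjusted p = 0.202, not called, although every cobomarsen array lay above every untreated one. The effect differed between HuT102 and MJ by 0.98 ± 0.25, adjusted p = 0.00197 at day 8 and by 1.10 ± 0.25, adjusted p = 0.00148 at day 4.

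DDIT3 (CHOP), a pro-apoptotic factor of prolonged ER stress, was called in HuT102 and in no other line in the model over all arrays. At day 8 its HuT102 signals were 868, 711, 738 and 993 with cobomarsen, against 603, 556, 574 and 716 in untreated cells, with 1 overlapping pair of arrays and a change of 0.42 ± 0.16, adjusted p = 0.0275. This call was lost without cobomarsen array 1 or 4 or untreated array 1, 2 or 3 (adjusted p = 0.0510 to 0.124). On day 4 the signals were 598, 738, 774 and 684 with cobomarsen, against 348, 397, 532 and 525 in untreated cells, without overlap (0.63 ± 0.16, adjusted p = 0.00187). The MJ changes were -0.33 and -0.32, not called in that model. With the MJ arrays alone they were -0.33 ± 0.11, adjusted p = 0.0174 at day 8 and -0.32 ± 0.11, adjusted p = 0.0257 at day 4, both past the threshold. The effect in HuT102 exceeded that in MJ by 0.75 ± 0.22, adjusted p = 0.00769 at day 8 and by 0.95 ± 0.22, adjusted p = 0.00194 at day 4.

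ATF5, an ATF4 relative with a part in the mitochondrial stress response, rose in HuT102 and MyLa. In HuT102 at day 8 its signals were 704, 572, 399.6 and 919.8 with cobomarsen, against 223, 303, 325 and 247 in untreated cells. In MyLa at day 8 they were 1707, 1989, 1676 and 2012 with cobomarsen, against 679, 805, 1233 and 1029.9 in untreated cells. Every cobomarsen array was higher than every untreated one in both, although the cobomarsen arrays of HuT102 were widely spread. The changes at day 8 were 1.15 ± 0.20, adjusted p = 3.99e-06 in HuT102 and 0.998 ± 0.20, adjusted p = 4.56e-05 in MyLa. At day 4 the changes were 0.78 ± 0.20, adjusted p = 0.00240 in HuT102 and 0.71 ± 0.20, adjusted p = 0.00497 in MyLa. The MyLa day 4 groups overlapped, with untreated array 4 at 1221 above every cobomarsen array, and the call was lost without untreated array 1 (adjusted p = 0.0570). In MJ the changes were 0.0013 at day 8 and -0.33 at day 4, not called. HuT102 exceeded MJ by 1.15 ± 0.28, adjusted p = 0.00126 and MyLa exceeded MJ by 0.997 ± 0.28, adjusted p = 0.00430 at day 8.

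XBP1, whose spliced mRNA encodes the main activator of ER expansion, fell in 3 lines. Its spliced and unspliced forms were not told apart here. Signals of XBP1 in MJ at day 4 were 1437, 1537, 1404 and 1305 with cobomarsen, against 2499.7, 2069, 2274 and 2826 in untreated cells, without overlap (-0.75 ± 0.10, adjusted p = 1.71e-08). HuT102 at day 8 gave 1202, 1051, 1196 and 978 with cobomarsen, against 1746, 1616, 1632 and 1633 in untreated cells, also without overlap (-0.58 ± 0.10, adjusted p = 2.45e-06). The change was -0.52 ± 0.10, adjusted p = 1.86e-05 in MyLa at day 8 and -0.37 ± 0.10, adjusted p = 0.00204 in MJ at day 8. At day 4 the changes in HuT102 and MyLa, -0.15 and 0.04, were not called. In MyLa the day 8 effect differed from the day 4 effect by -0.56 ± 0.14, adjusted p = 0.00294.

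Of the 3 feedback and glutathione genes tested, TRIB3 and PPP1R15A fell in MJ at both days, against 18.6% of all genes called lower at day 8 and 14.3% at day 4. TRIB3 is a pseudokinase that binds ATF4 and dampens it. Signals in MJ cells at day 8 were 2303, 2082, 2341 and 2291 with cobomarsen, against 3166, 3346, 3353 and 3113 in untreated cells, with a wide gap between the groups (-0.52 ± 0.09, adjusted p = 5.68e-06). Day 4 gave 2639.8, 2592, 2611 and 2471 with cobomarsen, against 3604, 5508, 3570.0 and 3776 in untreated cells, again without overlap although untreated array 2 stood high (-0.65 ± 0.09, adjusted p = 1.13e-07).

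TRIB3 also fell in HuT102 at day 8 and rose in MyLa. HuT102 signals were 744, 756, 684 and 706 with cobomarsen, against 1073, 1268, 1096 and 1004 in untreated cells (-0.60 ± 0.09, adjusted p = 2.32e-07). In MyLa at day 8 they were 1852, 2025, 1749 and 1992 with cobomarsen, against 1406, 1387, 1339.6 and 1249 in untreated cells (0.50 ± 0.09, adjusted p = 1.22e-05). Neither pair of groups overlapped. On day 4 the MyLa rise was 0.28 ± 0.09, adjusted p = 0.0175, a call that was lost without untreated array 1 (adjusted p = 0.0940). Between MyLa and MJ the effect differed by 1.02 ± 0.13, adjusted p = 8.32e-09 at day 8 and by 0.93 ± 0.13, adjusted p = 3.62e-07 at day 4.

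PPP1R15A (GADD34), the phosphatase subunit that removes the phosphate from eIF2 and so ends the response, moved in opposite directions in HuT102 and MJ. Its MJ signals at day 8 were 787, 706, 687 and 692 with cobomarsen, against 1418, 1415, 1413 and 1493 in untreated cells (-0.98 ± 0.11, adjusted p = 4.26e-10). MJ at day 4 gave 1079, 989, 979.7 and 936 with cobomarsen, against 1815, 1733, 1731 and 1628 in untreated cells (-0.79 ± 0.11, adjusted p = 1.92e-07). In both, each cobomarsen array was far below each untreated one. HuT102 at day 8 gave the reverse, 815, 879, 756 and 938 with cobomarsen, against 470.0, 483, 501 and 543 in untreated cells (0.74 ± 0.11, adjusted p = 3.12e-07). At day 4 PPP1R15A was higher in HuT102 (0.41 ± 0.11, adjusted p = 0.00487) and lower in MyLa (-0.48 ± 0.11, adjusted p = 9.69e-04). The effect in HuT102 exceeded that in MJ by 1.73 ± 0.16, adjusted p = 1.23e-12 at day 8 and by 1.198 ± 0.16, adjusted p = 1.26e-07 at day 4.

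CHAC1, an ATF4 target that degrades glutathione, was not called in any line in the model over all arrays, in which its standard error was large. In MJ at day 8 its signals were 655, 597, 768 and 747 with cobomarsen, against 1029, 1145, 1046 and 1273 in untreated cells. At day 4 they were 734, 926, 855 and 813 with cobomarsen, against 1249, 1414, 1589 and 1384 in untreated cells. Cobomarsen arrays lay below untreated arrays throughout, but the changes of -0.69 ± 0.39, adjusted p = 0.185 at day 8 and -0.75 ± 0.39, adjusted p = 0.162 at day 4 used a spread pooled with lines where CHAC1 was uneven (33.4 to 437 in untreated MyLa cells at day 4). With the MJ arrays alone in the model the changes were -0.69 ± 0.10, adjusted p = 8.56e-06 at day 8 and -0.75 ± 0.10, adjusted p = 4.50e-06 at day 4.

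**Figure D2:**
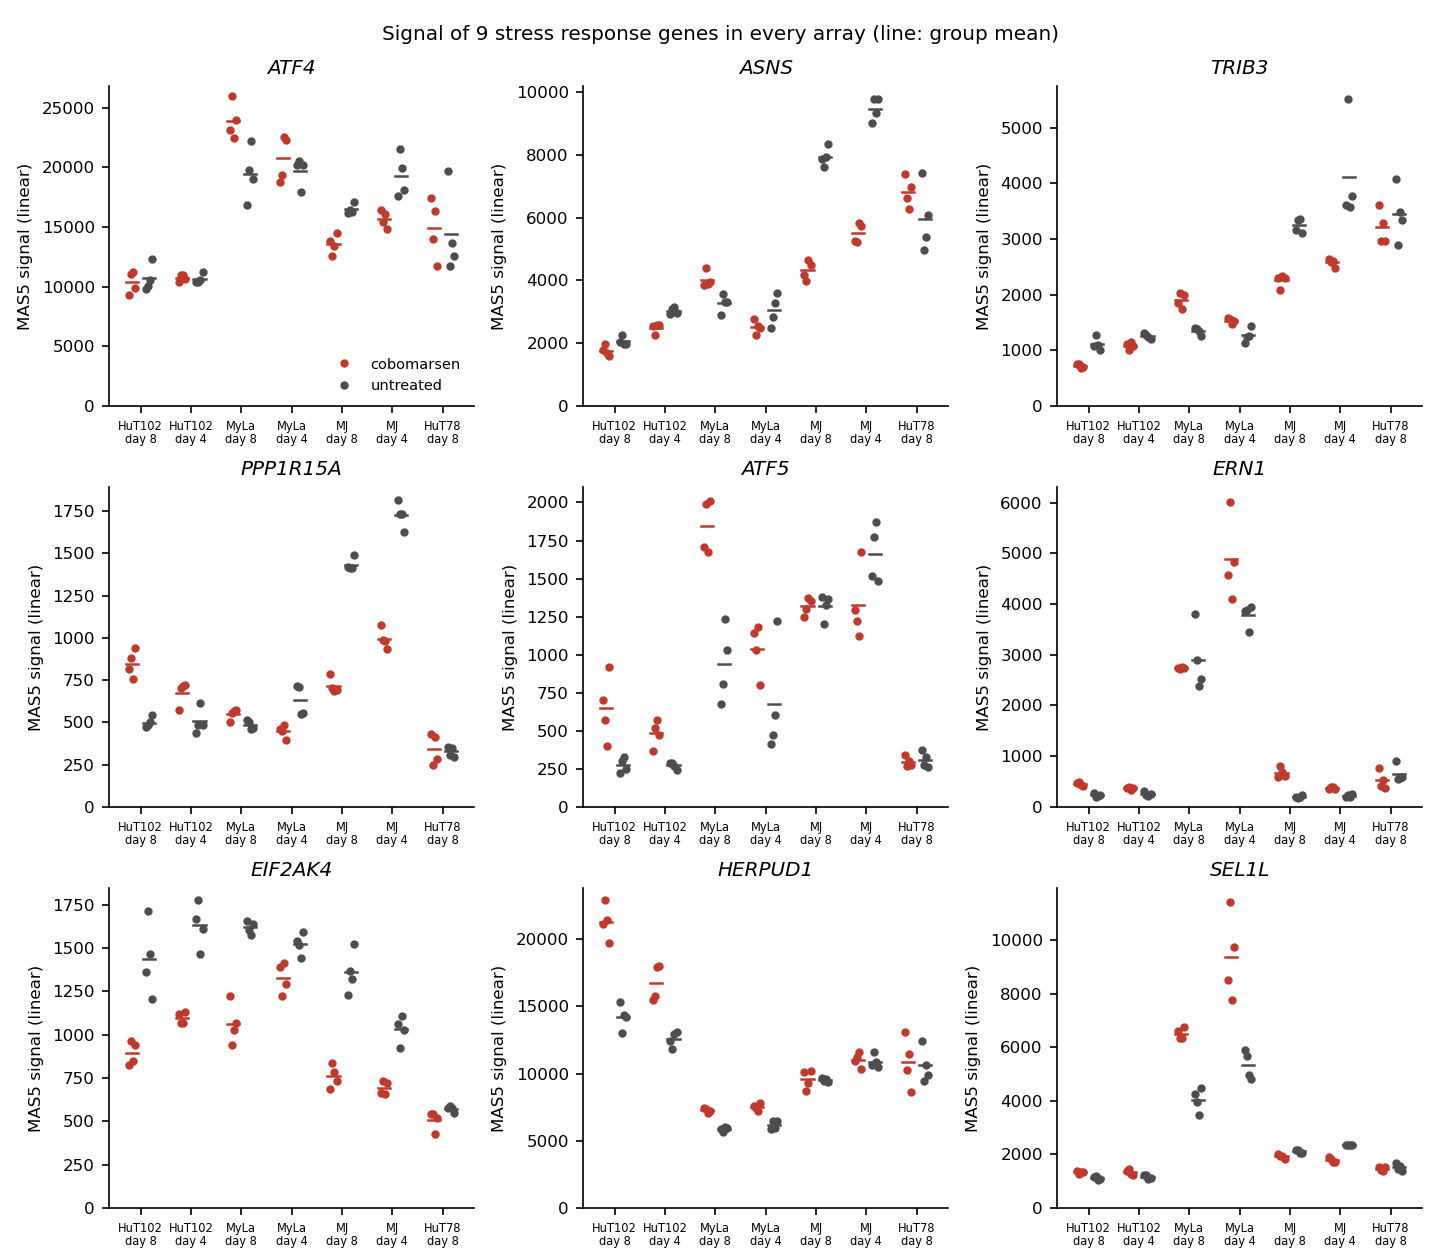
MAS5 signal (linear axis from 0) of 9 members in each array of the 7 pairs of groups, with cobomarsen in red left of untreated in grey; short lines are group means. In MJ the red points of ATF4, ASNS, TRIB3 and PPP1R15A all lie below the grey ones, and in HuT102 those of PPP1R15A and ATF5 all lie above at day 8.

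Among the amino acid and one-carbon enzymes, 6 of 8 were called lower in MJ at day 8 and 6 of 8 at day 4, with none higher, against 18.6% and 14.3% of all genes called lower. The median changes were -0.43 and -0.44. ASNS, asparagine synthetase and a classical ATF4 target, had one of the larger falls. Its day 8 signals in MJ were 4176, 3974, 4644 and 4494 with cobomarsen, against 7863, 7605, 7923 and 8339 in untreated cells (-0.88 ± 0.09, adjusted p = 8.33e-12). The day 4 signals were 5264, 5229, 5825 and 5719 with cobomarsen, against 9018, 9784, 9330.4 and 9769 in untreated cells (-0.78 ± 0.09, adjusted p = 3.77e-10). Every cobomarsen array lay far below every untreated one at either day.

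ASNS was lower in HuT102 too, by less. Its changes there were -0.23 ± 0.09, adjusted p = 0.0300 at day 8 and -0.28 ± 0.09, adjusted p = 0.0134 at day 4. The day 8 call was lost without cobomarsen array 3 or 4 or untreated array 2 (adjusted p = 0.0758 to 0.122) and with array weights or quantile normalization (adjusted p = 0.0519 to 0.0614), and the day 4 call was lost without cobomarsen array 2 (adjusted p = 0.0701). MyLa signals at day 8 were 3853, 4381, 3900.3 and 3947 with cobomarsen, against 2909, 3576, 3308 and 3309 in untreated cells, higher and without overlap (0.30 ± 0.09, adjusted p = 0.00502). At day 4 the MyLa change was -0.26 ± 0.09, adjusted p = 0.02003, and that call was lost without cobomarsen array 2 or untreated array 3 or 4 (adjusted p = 0.0775 to 0.148) and with a fit of the line's own arrays (adjusted p = 0.0507). The day 8 effect in MyLa exceeded the day 4 effect by 0.56 ± 0.12, adjusted p = 0.00111.

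PYCR1 and ALDH18A1 make proline from glutamate. PYCR1 signals in MJ at day 8 were 1154, 1328, 1532 and 1443 with cobomarsen, against 1832, 2237, 1944 and 1863 in untreated cells (-0.53 ± 0.10, adjusted p = 2.27e-05). Day 4 gave 1296, 1353, 1318 and 1453 with cobomarsen, against 2333, 2379, 2268 and 2510.3 in untreated cells (-0.80 ± 0.10, adjusted p = 5.27e-09). Neither pair overlapped. ALDH18A1, whose promoter window holds the one UPRE core among members, was lower in MJ at day 8 (-0.38 ± 0.11, adjusted p = 0.00360) and in HuT102 at day 8 (-0.35 ± 0.11, adjusted p = 0.00729). It was also called lower in MJ at day 4 (-0.28) and in MyLa at day 4 (-0.34). The MJ day 4 call was lost without cobomarsen array 1, 2 or 4 or untreated array 1, 2, 3 or 4 (adjusted p = 0.0556 to 0.182) and with no filter on low values or no intensity trend (adjusted p = 0.0535 to 0.0642). The MyLa call was lost without cobomarsen array 3 or 4 or untreated array 2 (adjusted p = 0.0504 to 0.0735).

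PHGDH, PSAT1 and PSPH carry out the successive steps of serine synthesis. PSPH signals in MJ at day 8 were 904, 859, 991 and 769 with cobomarsen, against 1248, 1239, 1089.5 and 1309 in untreated cells (-0.47 ± 0.12, adjusted p = 0.00198). HuT102 at day 8 gave 4523, 4752, 4876 and 4031 with cobomarsen, against 6278, 6371, 6748 and 6695 in untreated cells (-0.52 ± 0.12, adjusted p = 4.27e-04). Both pairs were apart, as were the MJ groups at day 4 (-0.66 ± 0.12, adjusted p = 2.88e-05). PHGDH signals in MJ at day 8 were 1858, 2189, 2164 and 2115 with cobomarsen, against 3406, 3866, 3711 and 3685 in untreated cells, without overlap (-0.81 ± 0.32, adjusted p = 0.0439). This call was lost without cobomarsen array 1, 2, 3 or 4 or untreated array 1, 2, 3 or 4 (adjusted p = 0.0605 to 0.0970) and with 1 in place of 16 added, no filter on low values or no intensity trend (adjusted p = 0.0582 to 0.188). In the MJ arrays alone the change was -0.81 ± 0.09, adjusted p = 1.76e-07.

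PHGDH in HuT102 at day 8 gave signals of 1015, 1005, 752 and 811 with cobomarsen, against 1443, 1490.3, 1362 and 1366 in untreated cells. Its cobomarsen arrays were all lower, yet the change of -0.66 ± 0.32, adjusted p = 0.0969 was not called with the spread of all lines, which includes MyLa, where PHGDH lay near background. With HuT102 arrays alone it was -0.66 ± 0.09, adjusted p = 4.89e-06. PSAT1 rose in MyLa at day 8, with signals of 11449, 10008, 10470.0 and 12062 with cobomarsen, against 7357, 7344, 7624 and 7631 in untreated cells and no overlap (0.55 ± 0.15, adjusted p = 0.00311). That call was lost with 1 in place of 16 added (adjusted p = 0.155). In MJ at day 8 PSAT1 signals were 6862, 6845, 7659 and 7164 with cobomarsen, against 9008, 9132, 9011 and 9880.1 in untreated cells, without overlap but not called (-0.38 ± 0.15, adjusted p = 0.0535). The MJ day 4 change was -0.40 ± 0.15, adjusted p = 0.0467; this call was lost without cobomarsen array 1, 2, 3 or 4 or untreated array 2, 3 or 4 (adjusted p = 0.0677 to 0.146) and with every probe set tested on its own, 1 in place of 16 added, no filter on low values, no intensity trend or quantile normalization (adjusted p = 0.0522 to 0.398).

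MTHFD2, a mitochondrial one-carbon enzyme, was among the brightest members and moved by small amounts. It was higher in HuT102 at day 8 (0.26 ± 0.06, adjusted p = 2.35e-04) and lower in MJ at day 8 (-0.19 ± 0.06, adjusted p = 0.0104) and day 4 (-0.24 ± 0.06, adjusted p = 0.00133). The MJ day 8 call was lost without untreated array 4 (adjusted p = 0.0959), and another MTHFD2 probe set was called in the opposite direction there (0.37), so the direction at day 8 depends on the probe set. The call in MyLa at day 8 (-0.16) was lost without cobomarsen array 2 or 3 or untreated array 3 or 4 (adjusted p = 0.0586 to 0.105) and with no filter on low values, a fit of the line's own arrays or quantile normalization (adjusted p = 0.0515 to 0.355). SHMT2, the serine hydroxymethyltransferase of mitochondria, was not called in the model over all arrays, with changes from -0.20 to 0.20. With the MJ arrays alone its day 8 change was -0.20 ± 0.07, adjusted p = 0.0315.

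The aminoacyl-tRNA synthetases, which charge tRNAs with amino acids, were lower in MJ too. Of 4 tested, 3 were called lower at day 8 and 2 at day 4, against 18.6% and 14.3% of all genes, and all 4 changes were below 0 at both days. GARS1 (glycine) signals in MJ at day 8 were 9091, 8628, 8941 and 9361 with cobomarsen, against 13467, 12442, 13472 and 13590.0 in untreated cells (-0.56 ± 0.07, adjusted p = 2.19e-08). HuT102 at day 8 gave 5214, 5617, 4715 and 5222 with cobomarsen, against 6004, 6698, 5806 and 6101 in untreated cells (-0.24 ± 0.07, adjusted p = 0.00620). The groups were apart in both lines. GARS1 was also lower in MJ (-0.47), HuT102 (-0.32) and MyLa (-0.29) at day 4, with adjusted p of 1.50e-06, 0.00103 and 0.00223.

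SARS1 (serine) gave MJ signals at day 8 of 6119, 5851, 6163 and 7124 with cobomarsen, against 9035, 8151, 8852 and 8271 in untreated cells, without overlap (-0.44 ± 0.08, adjusted p = 9.25e-06). It was lower by a like amount in MJ at day 4 (-0.40 ± 0.08, adjusted p = 6.30e-05) and in MyLa at day 4 (-0.28 ± 0.08, adjusted p = 0.00512). WARS1 (tryptophan), which interferon also induces, went with the line: in HuT102 at day 8 signals were 12445, 12395, 12197 and 13505 with cobomarsen, against 17486, 15035, 15467 and 17888 in untreated cells (-0.38 ± 0.09, adjusted p = 4.64e-04). In MyLa at day 8 they were 7008, 7398, 7193 and 7005 with cobomarsen, against 5156, 5516, 5984 and 5294 in untreated cells (0.38 ± 0.09, adjusted p = 4.18e-04). Cobomarsen arrays were lower than untreated arrays in the first and higher in the second, with no overlap in either. The MJ day 8 call (-0.24) was lost without cobomarsen array 2 or 3 or untreated array 1, 2 or 3 (adjusted p = 0.0519 to 0.104) and with no filter on low values or quantile normalization (adjusted p = 0.0505 to 0.0902). The MyLa day 4 call (0.27) was lost without cobomarsen array 1 or 2 or untreated array 1, 2 or 3 (adjusted p = 0.0502 to 0.162) and with a fit of the line's own arrays (adjusted p = 0.0910). AARS1 (alanine) was called in MyLa at day 4 and nowhere else in the model over all arrays (-0.32 ± 0.09, adjusted p = 0.00700). With the MJ arrays alone it was lower in MJ, by -0.21 ± 0.06, adjusted p = 0.00760 at day 8 and -0.20 ± 0.06, adjusted p = 0.0110 at day 4.

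**Figure D3:**
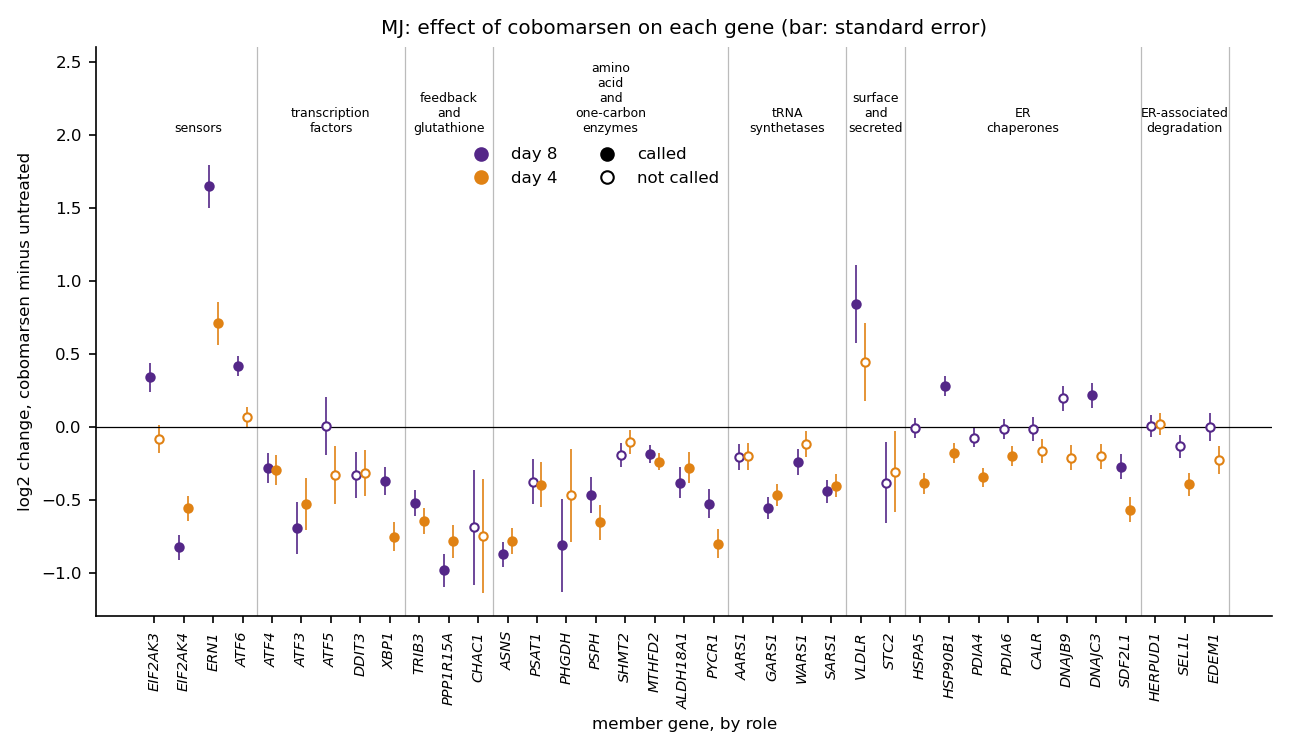
Log2 change in MJ cells, cobomarsen minus untreated, of each of the 37 members tested (day 8 in purple, day 4 in orange; bars are standard errors; filled points were called). Feedback genes, enzymes and synthetases lie below 0 at both days, ER chaperones lie below 0 at day 4 and around 0 at day 8, and ERN1 lies at 1.65 and 0.71.

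Of the sensors, ERN1, which encodes the ER kinase and nuclease IRE1, showed the largest rise of any member. Signals in MJ cells at day 8 were 587, 808, 684 and 601 with cobomarsen, against 197, 175, 204 and 235 in untreated cells (1.65 ± 0.15, adjusted p = 3.12e-13). At day 4 they were 344, 396, 388 and 347 with cobomarsen, against 197, 235, 202 and 248 in untreated cells (0.71 ± 0.15, adjusted p = 1.78e-04). Untreated MJ arrays stayed near 200 at both days while the cobomarsen arrays of day 8 lay far above those of day 4. The day 8 effect exceeded the day 4 effect by 0.94 ± 0.21, adjusted p = 0.0109.

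HuT102 signals of ERN1 at day 8 were 481, 486, 428 and 415 with cobomarsen, against 270.1, 201, 220.0 and 227 in untreated cells (0.94 ± 0.15, adjusted p = 7.29e-07). The day 4 signals were 379, 388, 329 and 369 with cobomarsen, against 312, 242, 213 and 253 in untreated cells (0.51 ± 0.15, adjusted p = 0.00880). No cobomarsen array was as low as an untreated one. MyLa had a higher ERN1 level to begin with and its changes were not called in the model over all arrays. Its signals averaged 2744 ± 14.04 with cobomarsen, against 2902 ± 635 in untreated cells at day 8 and 4878 ± 817 with cobomarsen, against 3784 ± 221 in untreated cells at day 4 (SD, n = 4 each). The day 4 groups did not overlap, and with the MyLa arrays alone the change was 0.35 ± 0.12, adjusted p = 0.0319. The effect in MyLa at day 8 differed from that in MJ by -1.702 ± 0.21, adjusted p = 4.52e-09, and that in HuT102 differed from it by -0.71 ± 0.21, adjusted p = 0.00783. XBP1, whose mRNA IRE1 splices, fell in MJ at both days and in HuT102 at day 8, where ERN1 rose. XBP1 also fell in MyLa at day 8 (-0.52), where the ERN1 change of -0.06 was not called. In HuT102 at day 4 ERN1 rose and the XBP1 change of -0.15 was not called.

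EIF2AK4, the GCN2 kinase, was below 0 in all 7 comparisons and was called in 5. In MJ at day 8 its signals were 684, 838, 786 and 731 with cobomarsen, against 1228, 1365, 1320.0 and 1520.4 in untreated cells (-0.82 ± 0.09, adjusted p = 2.66e-11). MyLa at day 8 gave 1222, 939, 1025 and 1066 with cobomarsen, against 1658, 1605, 1577 and 1639 in untreated cells (-0.61 ± 0.09, adjusted p = 6.90e-08). HuT102 at day 8 gave 825, 966, 848 and 939 with cobomarsen, against 1359, 1710.4, 1464 and 1203 in untreated cells (-0.66 ± 0.09, adjusted p = 7.05e-09). Each cobomarsen array was below each untreated one in all 3 lines. On day 4 the changes were -0.56 ± 0.09, adjusted p = 1.04e-06 in HuT102 and -0.56 ± 0.09, adjusted p = 7.97e-07 in MJ. The MyLa day 4 change of -0.19 and the HuT78 change of -0.17 were not called.

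ATF6 fell in MyLa and HuT102 and rose in MJ at day 8. MyLa signals were 979, 1065, 983 and 992 with cobomarsen, against 1611, 1782, 1519 and 1717 in untreated cells (-0.71 ± 0.07, adjusted p = 1.39e-12). In MJ they were 1479, 1393, 1515 and 1466 with cobomarsen, against 1079.5, 1181, 1044 and 1066 in untreated cells (0.42 ± 0.07, adjusted p = 1.39e-06). The groups stood well apart in each line, in opposite orders. HuT102 at day 8 changed by -0.24 ± 0.07, adjusted p = 0.00305 and MyLa at day 4 by -0.21 ± 0.07, adjusted p = 0.0146, a call that was lost without untreated array 2 (adjusted p = 0.0549). Between MyLa and MJ the day 8 effect differed by -1.13 ± 0.10, adjusted p = 8.35e-14. EIF2AK3, the ER kinase PERK, rose in MJ at day 8 (0.34 ± 0.10, adjusted p = 0.00562). In HuT102 at day 8 it was called lower (-0.25 ± 0.10, adjusted p = 0.0344), a call that was lost without cobomarsen array 2 or 4 or untreated array 1 (adjusted p = 0.0902 to 0.133) and with no filter on low values (adjusted p = 0.0524).

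ER chaperones were lower in MJ at day 4, when 5 of 8 were called lower, against 14.3% of all genes, and all 8 changes lay below 0. At day 8 in MJ, 1 was called lower and 2 higher, against 18.6% and 15.2%. HSPA5 (BiP), the main ER chaperone and the usual gauge of the unfolded protein response, had MJ signals at day 4 of 11982, 11661, 10056 and 11019 with cobomarsen, against 14035, 15220.0, 14182 and 15046 in untreated cells, without overlap (-0.39 ± 0.07, adjusted p = 1.47e-05). At day 8 they were 12113, 11559, 12581 and 11518 with cobomarsen, against 12618, 11896, 13011 and 10721 in untreated cells, with overlap (-0.01 ± 0.07, adjusted p = 0.925). Untreated MJ cells had themselves less HSPA5 at day 8 than at day 4 (12061 ± 1006, against 14621 ± 599.0). The effect at day 8 exceeded that at day 4 by 0.38 ± 0.10, adjusted p = 0.0384. This call was lost without day 4 cobomarsen array 3 or 4 or day 4 untreated array 1, 2 or 4 or day 8 cobomarsen array 1 or 3 or day 8 untreated array 2 or 4 (adjusted p = 0.0536 to 0.133) and with every probe set tested on its own, no filter on low values or no intensity trend (adjusted p = 0.0512 to 0.0587).

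HSP90B1 (GRP94), an ER chaperone of integrins and Toll-like receptors, turned over between the days in MJ. At day 8 its signals were 5393, 5126, 5534 and 5522 with cobomarsen, against 4346, 4418, 4514 and 4480.3 in untreated cells, with the cobomarsen arrays all higher (0.28 ± 0.07, adjusted p = 8.46e-04). Day 4 gave 4991, 4656, 4843 and 4781 with cobomarsen, against 5789, 5057, 5634 and 5372 in untreated cells, with the cobomarsen arrays all lower (-0.18 ± 0.07, adjusted p = 0.0421). The day 4 call was lost without cobomarsen array 2, 3 or 4 or untreated array 1, 3 or 4 (adjusted p = 0.0579 to 0.136) and with no filter on low values, no intensity trend or quantile normalization (adjusted p = 0.0501 to 0.0703). The difference between the days was 0.46 ± 0.10, adjusted p = 0.00527. In HuT102 at day 8 the change of HSP90B1 was -0.19 ± 0.07, adjusted p = 0.0230, a call that was lost without cobomarsen array 2 or 4 or untreated array 4 (adjusted p = 0.0596 to 0.0947).

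PDIA4, a disulfide isomerase, rose in HuT102 at day 8, with signals of 3189, 3552, 3373 and 3304 with cobomarsen, against 2227, 2374, 2406 and 2205 in untreated cells and a wide gap (0.54 ± 0.07, adjusted p = 1.04e-09). At day 4 in HuT102 the change was -0.01 ± 0.07, adjusted p = 0.924, and the day 8 effect exceeded it by 0.55 ± 0.09, adjusted p = 2.74e-05. MJ at day 4 went down instead, with 4219.8, 4299, 3810.2 and 3837 with cobomarsen, against 5505, 5339, 5021 and 4718 in untreated cells (-0.35 ± 0.06, adjusted p = 3.05e-05). Untreated HuT102 cells lost PDIA4 between the days (2303 ± 101.7 at day 8, against 2888 ± 188 at day 4).

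SDF2L1, an ER co-chaperone whose promoter holds an ERSE-II, rose in MyLa at day 8, with signals of 2439, 2831, 2695 and 2442 with cobomarsen, against 1548, 2080.0, 1951 and 1769 in untreated cells and no overlap (0.50 ± 0.09, adjusted p = 2.86e-06). MJ at day 4 gave 2330.0, 2291, 2297 and 2154 with cobomarsen, against 3164, 3992, 3267 and 3131 in untreated cells, lower without overlap (-0.57 ± 0.09, adjusted p = 4.55e-07). The change in MJ at day 8 was -0.27 ± 0.09, adjusted p = 0.00949, a call that was lost without untreated array 3 (adjusted p = 0.0569). DNAJB9, an IRE1-dependent co-chaperone of HSPA5, was lower in MyLa at day 8 (-0.33 ± 0.08, adjusted p = 0.00116). It was called higher in HuT102 at day 8 (0.23 ± 0.08, adjusted p = 0.0245), a call that was lost without cobomarsen array 2 or 3 or untreated array 2 or 3 (adjusted p = 0.0545 to 0.0833). The HuT102 day 4 call (0.27) was lost without cobomarsen array 1 or untreated array 4 (adjusted p = 0.0522 to 0.0627).

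DNAJC3 (p58IPK), an inhibitor of eIF2 kinases, rose in HuT102 at day 8 (0.33 ± 0.09, adjusted p = 0.00145). Its call in MJ at day 8 (0.22) was lost without cobomarsen array 2, 3 or 4 or untreated array 1, 2, 3 or 4 (adjusted p = 0.0565 to 0.136) and with every probe set tested on its own, no filter on low values or quantile normalization (adjusted p = 0.0514 to 0.0717). PDIA6, another disulfide isomerase, was lower in HuT102 at day 8 (-0.27 ± 0.07, adjusted p = 0.00149). Its MJ day 4 call (-0.20) was lost without cobomarsen array 1 or 4 or untreated array 2 (adjusted p = 0.0504 to 0.136), and its MyLa day 8 call (-0.18) was lost without cobomarsen array 2 or 3 or untreated array 1 or 4 (adjusted p = 0.0575 to 0.119) and with no filter on low values or quantile normalization (adjusted p = 0.0612 to 0.184). HSPA5 was called higher in MyLa at day 8 (0.19 ± 0.07, adjusted p = 0.0265), a call that was lost without cobomarsen array 4 or untreated array 2, 3 or 4 (adjusted p = 0.0503 to 0.101) and with a fit of the line's own arrays (adjusted p = 0.0523). CALR, the calcium-binding chaperone calreticulin, was called in no comparison of treatment in either model, with changes from -0.17 to 0.18. Of the 5 members with an ERSE in the searched window, HSPA5, HSP90B1 and PDIA6 were called lower in MJ at day 4, XBP1 was too, and CALR was not. The HSP90B1 and PDIA6 calls rest on single arrays, as given above. In that comparison 20 of 37 members and 14.3% of all genes were called lower, and a link with the element was not tested.

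**Figure D4:**
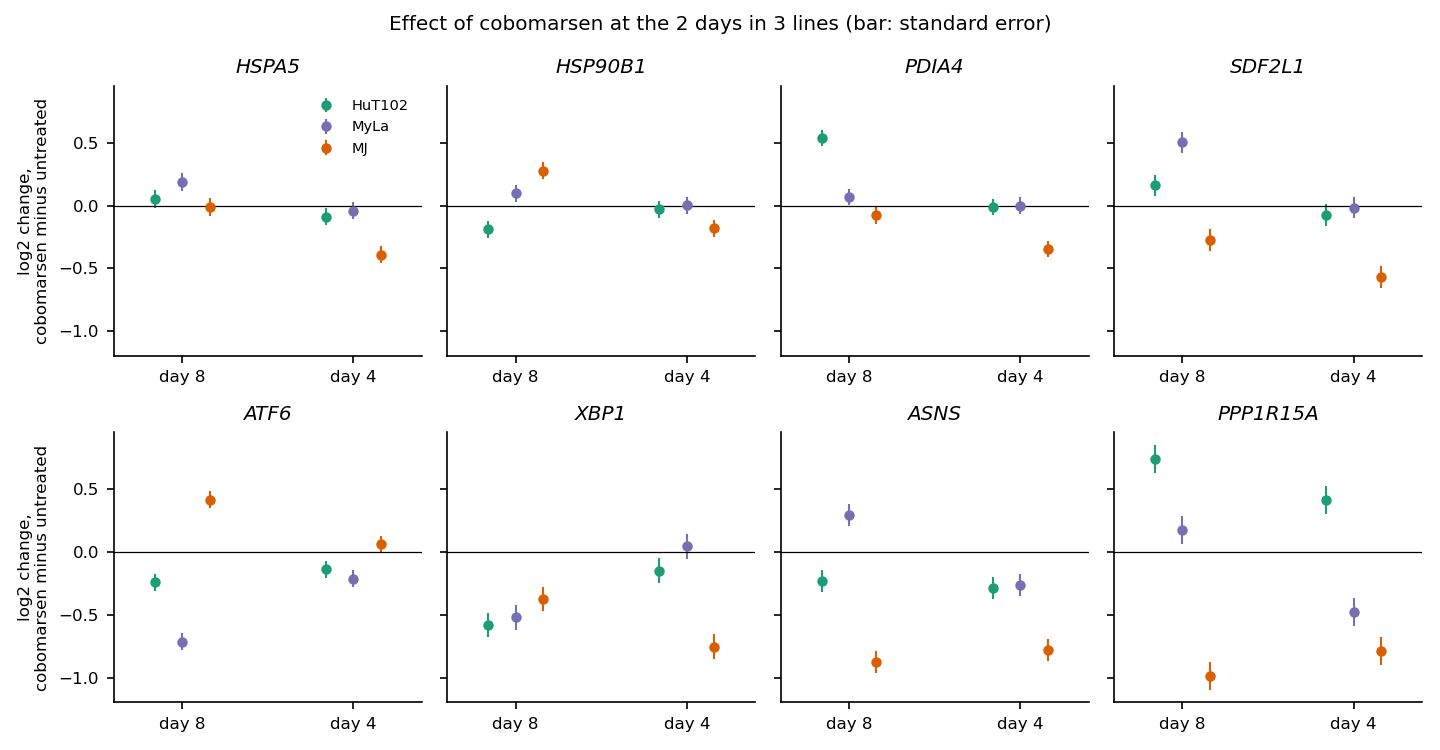
Log2 change with cobomarsen (points, with standard errors) of 8 members at day 8 and day 4 in HuT102 (green), MyLa (purple) and MJ (orange). HSPA5, HSP90B1, PDIA4 and SDF2L1 lie below 0 in MJ at day 4, and PPP1R15A lies above 0 in HuT102 and below 0 in MJ at both days.

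In ER-associated degradation, HERPUD1 and SEL1L rose in HuT102 and MyLa while EDEM1 fell. HERPUD1 anchors the degradation complex in the ER membrane. HuT102 signals at day 8 were 21132, 22937, 21450.0 and 19702 with cobomarsen, against 15348, 13041, 14339 and 14214 in untreated cells (0.58 ± 0.08, adjusted p = 6.88e-09). MyLa at day 8 gave 7408, 7364, 7064 and 7177 with cobomarsen, against 5846, 5647, 5996 and 5969 in untreated cells (0.31 ± 0.08, adjusted p = 7.82e-04). All cobomarsen arrays were higher in both lines. Day 4 changes were 0.41 ± 0.08, adjusted p = 2.81e-05 in HuT102 and 0.28 ± 0.08, adjusted p = 0.00381 in MyLa. MJ stayed at 0.0024 and 0.02, and HuT102 exceeded it by 0.58 ± 0.11, adjusted p = 2.41e-05 at day 8.

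SEL1L, the scaffold of the HRD1 ubiquitin ligase, rose in MyLa at both days. At day 8 its MyLa signals were 6600.2, 6338, 6338 and 6741 with cobomarsen, against 4266, 3957, 3475 and 4465 in untreated cells (0.69 ± 0.08, adjusted p = 3.09e-10). At day 4 they were 8527, 11432, 7762 and 9741 with cobomarsen, against 5895, 5669, 4975 and 4809 in untreated cells (0.80 ± 0.08, adjusted p = 1.15e-11). Neither pair overlapped. MJ at day 4 moved the other way, with 1909, 1810.1, 1732 and 1706 with cobomarsen, against 2362, 2351, 2334 and 2365 in untreated cells (-0.39 ± 0.08, adjusted p = 8.59e-05). MyLa exceeded MJ by 0.82 ± 0.11, adjusted p = 4.09e-08 at day 8 and by 1.19 ± 0.11, adjusted p = 1.09e-11 at day 4. In HuT102 at day 8 SEL1L rose by 0.25 ± 0.08, adjusted p = 0.00735.

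EDEM1, a lectin that hands misfolded glycoproteins to degradation, was below 0 in all 7 comparisons. In HuT102 at day 8 its signals were 1721, 1757, 1782 and 1676 with cobomarsen, against 2858, 2518, 2279 and 2742 in untreated cells, without overlap (-0.57 ± 0.10, adjusted p = 1.86e-06). It was called lower in HuT102 at day 4 as well (-0.32 ± 0.10, adjusted p = 0.00952). The MyLa day 4 change was -0.29 ± 0.10, adjusted p = 0.0202, and the call was lost without cobomarsen array 3 or untreated array 4 (adjusted p = 0.0531 to 0.0781). In MJ the changes of -0.0048 at day 8 and -0.23 at day 4 were not called.

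VLDLR, a lipoprotein receptor raised by ATF4, and STC2, a secreted glycoprotein of the ER stress response, are targets outside the ER. VLDLR signals in MJ at day 8 were 356, 377, 443 and 325 with cobomarsen, against 202, 193, 177 and 238 in untreated cells, without overlap (0.84 ± 0.27, adjusted p = 0.0109). The call was lost with 1 in place of 16 added (adjusted p = 0.0764). STC2 in MJ at day 8 gave 491, 588, 656 and 611 with cobomarsen, against 781, 736, 692 and 863 in untreated cells, lower without overlap but not called (-0.38 ± 0.28, adjusted p = 0.313). With the MJ arrays alone its change was -0.38 ± 0.11, adjusted p = 0.00679. In MyLa both genes lay below the level tested, at 30.6 ± 18.3 and 63.6 ± 38.0 in untreated cells at day 8 (SD, n = 4).

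The model over all arrays gives a gene 1 spread for all lines, including lines where it is near background. With only the arrays of MJ in the model, 30 of 37 members were called at day 8 (7 higher and 23 lower), where 42.3% of all genes were called, and 31 at day 4 (2 higher and 29 lower), where 36.3% of all genes were. CHAC1, PSAT1, PHGDH and STC2 were among those lower at both days. In HuT102 alone 26 were called at day 8 (12 higher and 14 lower), where 43% of all genes were, and 15 at day 4 (7 higher and 8 lower), where 26.2% were. In MyLa alone 14 were called at day 8 (9 higher and 5 lower), where 42.9% of all genes were, and 13 at day 4 (5 higher and 8 lower), where 26.5% were.

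Day 8 effects were set against day 4 effects within each line. In MJ 4 members had a higher effect at day 8 and none a lower one, against 0.360% and 0.947% of all genes. These were ERN1, HSP90B1, HSPA5 and ATF6 (0.35 ± 0.10, adjusted p = 0.0445). The ATF6 call was lost without day 4 cobomarsen array 1, 2, 3 or 4 or day 4 untreated array 2, 3 or 4 or day 8 cobomarsen array 1, 3 or 4 or day 8 untreated array 1, 3 or 4 (adjusted p = 0.0520 to 0.122) and with every probe set tested on its own, no filter on low values or quantile normalization (adjusted p = 0.0564 to 0.0667). With no filter on low values, or with every probe set tested on its own, 2 members were called in all.

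In MyLa 4 members were higher and 6 lower at day 8, against 9.70% and 7.53% of all genes. PPP1R15A (0.65 ± 0.16, adjusted p = 0.00288), ASNS, SDF2L1 (0.52 ± 0.12, adjusted p = 0.00172) and GARS1 (0.45 ± 0.10, adjusted p = 0.00179) were the higher ones. XBP1, ATF6 (-0.50 ± 0.10, adjusted p = 1.70e-04) and EIF2AK4 (-0.41 ± 0.12, adjusted p = 0.0138) led the lower ones. The others were DNAJB9, MTHFD2 and PDIA6, whose calls were lost without any 1 of 10, 4 and 2 arrays. Each of those calls was also lost with quantile normalization, and those of DNAJB9 and MTHFD2 with a fit of the line's own arrays. In HuT102 2 were higher and 2 lower, against 3.23% and 3.95% of all genes. Of these, PDIA4 was kept under every setting and with each array left out. The XBP1 call (-0.43) was lost without day 4 cobomarsen array 1 or 2 or day 4 untreated array 3 or 4 or day 8 cobomarsen array 2 or 4 or day 8 untreated array 1, 3 or 4 (adjusted p = 0.0594 to 0.128) and with array weights, every probe set tested on its own, no filter on low values, no intensity trend or a fit of the line's own arrays (adjusted p = 0.0529 to 0.0690). The TRIB3 call (-0.39) was lost without day 4 cobomarsen array 1, 3 or 4 or day 4 untreated array 1, 2, 3 or 4 or day 8 cobomarsen array 1, 3 or 4 or day 8 untreated array 1, 2 or 3 (adjusted p = 0.0540 to 0.130) and with array weights, every probe set tested on its own, 64 in place of 16 added, no filter on low values or no intensity trend (adjusted p = 0.0518 to 0.0736). The DNAJC3 call (0.38) was lost without day 4 cobomarsen array 1, 2, 3 or 4 or day 4 untreated array 1, 2, 3 or 4 or day 8 cobomarsen array 1, 3 or 4 or day 8 untreated array 1, 3 or 4 (adjusted p = 0.0508 to 0.119) and with every probe set tested on its own or no filter on low values (adjusted p = 0.0614 to 0.0716).

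Untreated cells drifted between the days, and each effect above is relative to that drift. In untreated HuT102 2 members were higher and 8 lower at day 8, against 4.63% and 4.16% of all genes. In untreated MJ 1 was higher and 3 lower, against 1.11% and 0.490%. In untreated MyLa 0 were higher and 5 lower, against 6.69% and 6.50%. HSPA5 and HSP90B1 were lower at day 8 in all 3 lines. HSPA5 changed by -0.32 ± 0.07, adjusted p = 0.00147 in HuT102, by -0.24 ± 0.07, adjusted p = 0.0174 in MyLa and by -0.28 ± 0.07, adjusted p = 0.0201 in MJ.

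HSP90B1 changed by -0.21, -0.26 and -0.30 in HuT102, MyLa and MJ. Its HuT102 call was lost without day 4 untreated array 1, 2 or 4 or day 8 untreated array 1, 2, 3 or 4 (adjusted p = 0.0668 to 0.117) and with every probe set tested on its own, no filter on low values or no intensity trend (adjusted p = 0.0506 to 0.0684), and its MJ call was lost without day 4 untreated array 1 (adjusted p = 0.0574). For HSPA5 the MyLa call was lost without day 4 untreated array 2 or day 8 untreated array 2 or 3 (adjusted p = 0.0548 to 0.119). The HSPA5 call in MJ was lost without day 4 untreated array 2 or 4 or day 8 untreated array 2 or 4 (adjusted p = 0.0544 to 0.142). Untreated HuT102 also lost PSAT1, with signals of 2751, 3345, 2873 and 2580.4 at day 8, against 5129.7, 4472, 4375 and 4496 at day 4 (-0.68 ± 0.15, adjusted p = 0.00224). The PSAT1 call was lost with 1 in place of 16 added (adjusted p = 0.183). The change of ASNS there was -0.56 ± 0.09, adjusted p = 9.46e-06. That of DNAJB9 was 0.45 ± 0.08, adjusted p = 2.12e-04.

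The effect of cobomarsen differed between lines for most members. At day 8 a moderated F-test over the 4 lines was passed by 29 of 37 members, against 64.9% of all genes. At day 4 over 3 lines 19 of 37 passed, against 27.3% of all genes. HuT102 minus MJ was higher for 13 and lower for 5 members at day 8, against 14.1% and 13.9% of all genes. At day 4 it was higher for 15 and lower for 0, against 5.95% and 6.66%. MyLa minus MJ was higher for 15 and lower for 5 at day 8, against 19.3% and 14.4%. At day 4 it was higher for 14 and lower for 1, against 9.35% and 7.92%. These 2 differences share the MJ arrays. Members higher in both at day 4 included ATF5, XBP1, TRIB3, ASNS, PYCR1, HSPA5, PDIA4, SDF2L1 and SEL1L.

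The lines differed in the level of nearly all these genes, as they did for most genes tested. In untreated cells at day 8, 36 of 37 members differed between the 4 lines by a moderated F-test, against 91.1% of all genes, and DDIT3 was the exception (612 in HuT102, 650.1 in MyLa, 669 in MJ and 737 in HuT78, adjusted p = 0.574). HuT102 and MJ have running numbers in the sample titles that lie apart from those of MyLa and HuT78, and that division cannot be told apart from the lines.

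PSAT1 and PHGDH were each near background in 1 line. PSAT1 signals were 25.1, 39.6, 21.9 and 15.4 in untreated HuT78 cells, below the median of all values, against 7357, 7344, 7624 and 7631 in MyLa. They were 9008, 9132, 9011 and 9880.1 in MJ and 2751, 3345, 2873 and 2580.4 in HuT102. A second PSAT1 probe set also had its lowest mean in HuT78 (89.5, against 1946 in HuT102, 5043 in MyLa and 7367 in MJ). PHGDH signals in MyLa were 8.17, 103, 94.4 and 11.8, against 3406, 3866, 3711 and 3685 in MJ. Its means were 1415 in HuT102 and 2780.0 in HuT78, and no other probe set names PHGDH alone. PSPH was highest in HuT102 (6523 ± 233) and lowest in HuT78 (688 ± 175). Another PSPH probe set had 593 in HuT102 and 812 in HuT78, so that order depends on the probe set.

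ERN1 was highest in untreated MyLa at day 8 (2902 ± 635), then HuT78 (652 ± 170), HuT102 (229.6 ± 29.1) and MJ (203 ± 24.7). The last pair, HuT102 and MJ, did not differ beyond their spread. A second ERN1 probe set was also highest in MyLa (6815). ATF3 was highest in HuT102 (6008 ± 494) and lowest in HuT78 (479.8 ± 303), where array 1 alone was high at 934. CHAC1 (1123 ± 112), STC2 (768 ± 73.2), PPP1R15A (1435 ± 38.8) and ASNS (7932 ± 304) were highest in MJ. TRIB3 was close in HuT78 and MJ (3450.5 ± 491 and 3244 ± 123) and lower in MyLa and HuT102 (1345 ± 69.9 and 1111 ± 112). SEL1L (4041 ± 431), EDEM1 (4812 ± 774) and DNAJB9 (4539 ± 401) were highest in MyLa, which had the lowest HSPA5 (8031 ± 442), HSP90B1 (2898 ± 194) and HERPUD1 (5864 ± 159). Another HSP90B1 probe set had 1088 in MyLa, 1008 in MJ, 1055 in HuT78 and 1659 in HuT102, so the HSP90B1 order depends on the probe set.

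**Figure D5:**
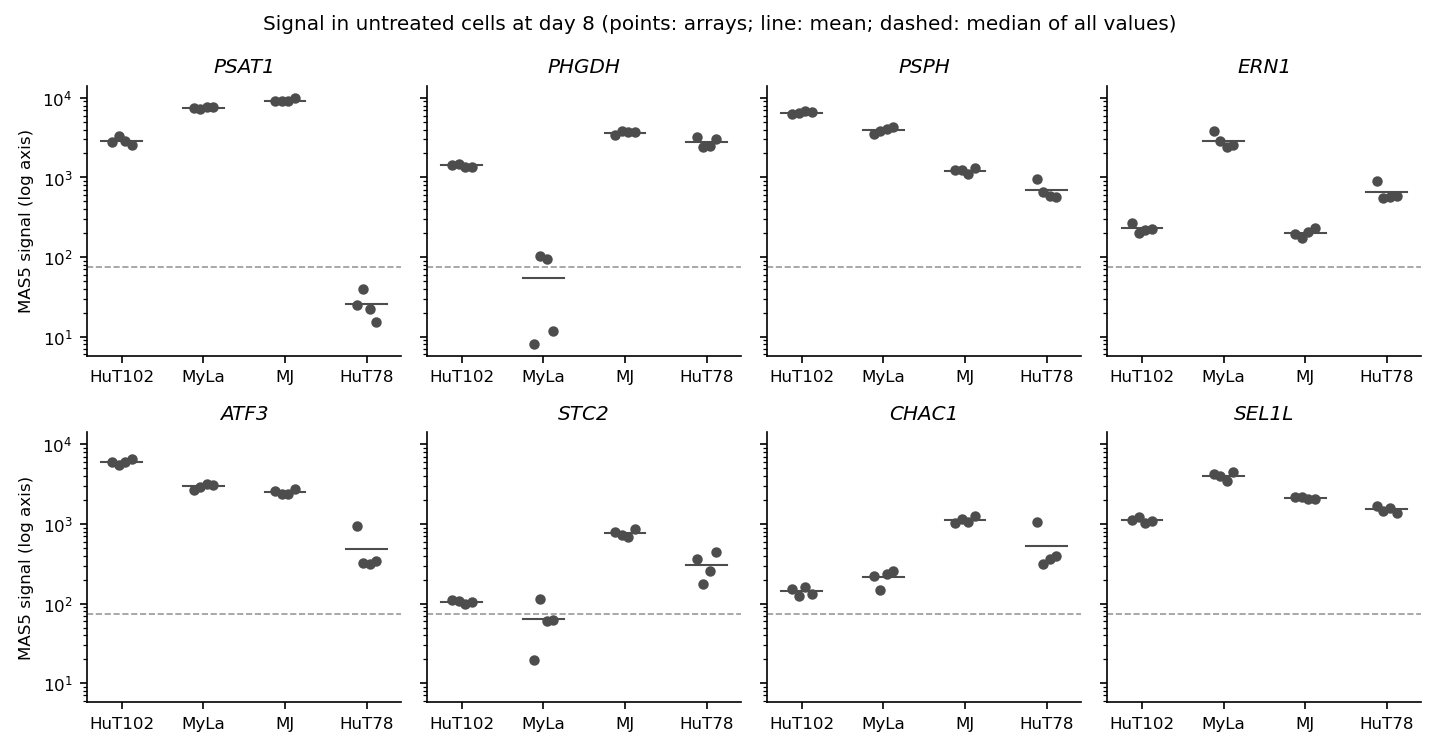
MAS5 signal (log axis) of 8 members in untreated cells at day 8 in the 4 lines; points are the 4 arrays of each line, short lines their means, and the dashed line marks the median of all values (73.98). PSAT1 lies below the dashed line in HuT78, and the mean of PHGDH does in MyLa.

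A further 63 genes of the same pathways that are not members were listed by group, of which 54 to 57 were tested. In MJ 9 were called higher and 16 lower at day 8, and 6 higher and 20 lower at day 4, of 56. All genes were called higher and lower at 15.2% and 18.6% at day 8, and at 13.2% and 14.3% at day 4. Of the other ATF4-linked genes in MJ, 9 of 19 were lower at day 8 and 8 at day 4, with 1 higher at each. CTH, which makes cysteine, averaged 840.3 with cobomarsen, against 2354 in untreated cells (log2 change -1.47 ± 0.15, adjusted p = 4.16e-11) in MJ at day 8. GADD45A, a growth arrest gene, averaged 3875 with cobomarsen, against 7003 in untreated cells (log2 change -0.85 ± 0.08, adjusted p = 2.88e-12). SESN2, a leucine sensor, averaged 582 with cobomarsen, against 1012 in untreated cells (log2 change -0.76 ± 0.19, adjusted p = 0.00150) at day 4.

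EDEM3, a mannosidase of ER-associated degradation, rose at day 8 in both MJ and MyLa. Its relative EDEM1 was not called in either line at that day (-0.0048 in MJ and -0.13 in MyLa). In MJ at day 8 it averaged 2203 with cobomarsen, against 626 in untreated cells (log2 change 1.79 ± 0.14, adjusted p = 9.18e-16). In MyLa at day 8 it averaged 1093 with cobomarsen, against 597 in untreated cells (log2 change 0.87 ± 0.14, adjusted p = 6.60e-07). In HuT102 13 other genes were higher and 16 lower at day 8, and 5 and 7 at day 4, of 57, against 18.9% and 21.2% of all genes at day 8 and 10.1% and 13.0% at day 4. CEBPB, a partner of ATF4 at CARE sites, averaged 993 with cobomarsen, against 372 in untreated cells (log2 change 1.37 ± 0.13, adjusted p = 7.64e-13) in HuT102 at day 8. EIF2AK2 (PKR), the eIF2 kinase that senses double-stranded RNA and is induced by interferon, averaged 3054 with cobomarsen, against 8667 in untreated cells (log2 change -1.50 ± 0.21, adjusted p = 7.05e-08). It was also lower in MJ at day 8 (-0.79).

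In MyLa 11 other genes were higher and 7 lower at day 8, and 7 and 8 at day 4, of 54, against 23.5% and 18.4% of all genes at day 8 and 13.4% and 12.9% at day 4. DDIT4, an inhibitor of mTORC1, averaged 4059.8 with cobomarsen, against 8451 in untreated cells (log2 change -1.04 ± 0.13, adjusted p = 7.20e-09) in MyLa at day 8. At day 4 it averaged 12875 with cobomarsen, against 8915 in untreated cells (log2 change 0.49 ± 0.13, adjusted p = 0.00413), so the direction turned between the days. CBS, which makes cystathionine, averaged 719 with cobomarsen, against 361 in untreated cells (log2 change 0.98 ± 0.15, adjusted p = 2.33e-07) in MyLa at day 8. In HuT78 11 were called higher and 3 lower of 56, against 10.7% and 11.4% of all genes, in the comparison whose calls were lost in its own fit.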

How the data were processed

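Total RNA of 4 cell lines had been labelled as biotinylated cRNA and hybridised to arrays, per the labels' protocols. The authors deposited 1 table of linear MAS5 signal intensity per probe set and array, per the submitters' processing notes. Of its 54675 probe sets, 62 are controls, 41091 have 1 gene symbol in the platform annotation, 1801 several and 11721 none. The values had been scaled by the authors to a trimmed mean near 500, which relates all signals to total array brightness.

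Intensities were analysed as log2(signal + 16), with the probe set of highest mean per gene. Genes with a mean over the arrays compared at or above the median of all values (signal 73.98) were tested in 1 limma model of 14 groups over 56 arrays (eBayes with an intensity trend), with Benjamini-Hochberg adjustment over all genes tested and a threshold of 0.05. On simulated MJ day 4 data of 11943 genes, 48% of changes of log2 0.5 and 79% of changes of log2 1 were recovered, with 0 of wrong sign and 3 unchanged genes called. That simulation changed 100 genes at each size and gave each gene 1 normal spread in all lines. In the real comparison 1580 genes were called higher and 1708 lower, so the simulated rates need not hold there. All 40 members could be named, and of the other pathway genes up to 5 called with the largest change per comparison. The members and gene lists were chosen with earlier results of these data known. Alternatives were another value added (1 or 64), other filters, quantile normalization, every probe set, a line's own arrays, no trend, array weights and each array left out. Array numbers within a group are names only. The number of arrays limits precision. Python 3.11.15, NumPy 2.4.6, pandas 2.3.3, Matplotlib 3.10.9, R 4.3.3 and limma 3.58.1 were used.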

Additional observations from a re-analysis of the deposited data

Results flagged for a closer look

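In 26 of 504 groups of 4 arrays tested, which is 5.16%, 1 array lay far enough from the others to pass Dixon's 95% critical value for its gap over the group's range. Chance alone gives about 1 in 20. No explanation was tested.

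In HuT102 the signals that stood apart were ATF6 in day 8 untreated array 4 (lowest, 1727.4), XBP1 in day 8 untreated array 1 (highest, 1745.5), PPP1R15A in day 4 cobomarsen array 1 (lowest, 572) and ASNS in day 4 cobomarsen array 2 (lowest, 2255.4). Others in HuT102 were PSPH in day 4 untreated array 4 (lowest, 6525.6), MTHFD2 in day 4 cobomarsen array 1 (highest, 20055) and DNAJC3 in day 4 untreated array 2 (lowest, 1100.1). In MyLa the signals that stood apart were ERN1 in day 4 untreated array 3 (lowest, 3456.7), ATF6 in day 8 cobomarsen array 2 (highest, 1064.7), ATF4 in day 4 untreated array 3 (lowest, 17965) and XBP1 in day 8 cobomarsen array 3 (lowest, 1621.7). Others in MyLa were MTHFD2 in day 4 untreated array 2 (highest, 17314). In MJ the signals that stood apart were EIF2AK3 in day 4 untreated array 1 (highest, 1161.9), TRIB3 in day 4 untreated array 2 (highest, 5507.7), PPP1R15A in day 8 untreated array 4 (highest, 1492.7) and PSAT1 in day 4 cobomarsen array 2 (highest, 8260.8). Others in MJ were PSAT1 in day 8 untreated array 4 (highest, 9880.1), MTHFD2 in day 4 cobomarsen array 2 (highest, 17240.0), GARS1 in day 8 untreated array 2 (lowest, 12442) and WARS1 in day 4 untreated array 2 (highest, 14863). Others in MJ were CALR in day 8 cobomarsen array 4 (highest, 4853.7) and DNAJC3 in day 4 untreated array 4 (highest, 1321.7). In HuT78 the signals that stood apart were ERN1 in day 8 untreated array 1 (highest, 906.48), ATF3 in day 8 untreated array 1 (highest, 933.75), ATF3 in day 8 cobomarsen array 1 (highest, 721.96) and GARS1 in day 8 cobomarsen array 3 (highest, 14099).

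For 17 members the change with cobomarsen was called in opposite directions in 2 lines on the same day, and the difference between the lines passed limma's test in 28 such pairs. Such pairs were not counted over all genes, so they are not read as particular to the members. At day 4 the HuT102 effect minus the MJ effect (log2) was 1.101 for ATF3 and 1.1979 for PPP1R15A. At day 4 the HuT102 effect minus the MyLa effect (log2) was 0.8901 for PPP1R15A. At day 4 the MyLa effect minus the MJ effect (log2) was 0.9251 for TRIB3 and 1.1925 for SEL1L. At day 8 the HuT102 effect minus the MJ effect (log2) was -0.5911 for EIF2AK3, -0.6576 for ATF6, 1.7262 for PPP1R15A, 0.4505 for MTHFD2 and -0.4666 for HSP90B1. At day 8 the HuT102 effect minus the MyLa effect (log2) was -1.1001 for TRIB3, -0.5277 for ASNS, 0.4206 for MTHFD2, -0.762 for WARS1 and 0.5634 for DNAJB9. At day 8 the MyLa effect minus the MJ effect (log2) was -1.1286 for ATF6, 0.5827 for ATF4, 1.0181 for TRIB3, 1.1718 for ASNS and 0.6224 for WARS1. It was also 0.7775 for SDF2L1. At day 8 the HuT102 effect minus the HuT78 effect (log2) was -0.7495 for ALDH18A1, -0.5013 for GARS1 and -0.465 for PDIA6. At day 8 the MJ effect minus the HuT78 effect (log2) was -0.7876 for ALDH18A1, -0.8116 for GARS1 and -0.7329 for SARS1. At day 8 the MyLa effect minus the HuT78 effect (log2) was -0.3771 for PDIA6. The adjusted p of these differences ran from 8.35e-14 to 0.00168. Those with HuT78 rest on calls that were lost when the HuT78 arrays were fitted alone.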

How the results depend on the processing

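Of 137 values of 15 counts under other settings, 13 moved by more than 1.5 times, and of 184 with an array left out, 35 did; the cause was not tested. The HuT78 count of 5 became 2 with quantile normalization and 0 with the HuT78 arrays alone (4 at an unadjusted p under 0.05 in limma). It became 8 with array weights and 2 to 14 with an array left out. The share of all genes called in HuT78 moved too, from 22% to 0.0183% with its arrays alone and to 27.1% with array weights. The log2 change of PDIA6 there turned to -0.0209 with cobomarsen array 1 alone. Of the differences between day effects, the HuT102 count of 4 became 1 with no filter or with every probe set tested, 2 with no intensity trend or with array weights and 1 to 3 with an array left out. The MJ count of 4 became 2 with no filter or with every probe set tested and 2 to 4 with an array left out. Of the counts in untreated cells, day 8 minus day 4, MJ at 4 became 9 with its own arrays alone and 1 to 5 with an array left out. MyLa at 5 became 8 with the filter at the 75th percentile or with array weights and 2 to 8 with an array left out. HuT102 at 10 became 6 to 12 with an array left out. The total counts for cobomarsen in HuT102, MyLa and MJ stayed within 1.5 times under each setting run, but their split by direction did not: the 4 lower in HuT102 at day 4 became 8 with quantile normalization or with its own arrays alone, and the 1 higher in MJ at day 4 became 2 with its own arrays alone and 0 with the filter at the 75th percentile. With an array left out, the 5 higher in MyLa at day 4 became 2 without untreated array 1. The F-test at day 8 without HuT78 was passed by 25 members, and the share of all genes passing it is not given here. The setting of cobomarsen array 1 alone and the F-test without HuT78 were chosen after seeing the data. No paired analysis was run, since the labels give the arrays of a group no replicate numbers. Running numbers in the titles alternate untreated and cobomarsen arrays in HuT102, MJ and HuT78, and run in blocks by treatment in MyLa. Whether that order marks pairs is not stated, and its part in the results was not tested. Signals near or below 73.98 limit precision, as do 4 arrays a group.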
